A study of Mus musculus with 54 samples.

Results

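The 6 genes described here belong to the plasminogen and anticoagulant systems: the plasminogen activators Plat and Plau, the urokinase receptor Plaur, the inhibitors Serpine2 and Tfpi, and thrombomodulin, Thbd. They were chosen by symbol, and each was found once in both deposited expression tables, among 38363 entries in the table of retinoic acid (RA) treatment and 39067 in the table of LIF withdrawal and derived lineages. The series used mouse embryonic stem (ES) cells to study the long noncoding RNA Haunt and its locus beside the HOXA cluster. Its RNA sequencing was designed to find genes that differ between mutant and wild-type (WT) cells under RA and between stages of differentiation.

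Plasminogen activators are secreted serine proteases that turn plasminogen into plasmin, which dissolves fibrin and cleaves extracellular matrix. Serpins such as Serpine2 trap these proteases, the receptor Plaur holds urokinase at the cell surface, and Tfpi and Thbd restrain blood clotting at its start and at thrombin. Secretion of plasminogen activator and synthesis of thrombomodulin and basement membrane proteins are long-used marks of teratocarcinoma cells that turn into parietal endoderm under RA, and tissue-type activator and Serpine2 (protease nexin-1) are also made in the nervous system.

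All RA libraries came from 46C cells (strain 129/Ola), an ES line with GFP knocked in at Sox1. The cells spent a day in serum-free medium with LIF and 2 kinase inhibitors and were then given 2 µM RA without LIF. The knockout cells lacked 58 kb at the Haunt locus (58 kb KO) and gave the libraries KO-i and KO-j at each of days 4 and 2, and WT cells gave WT-1 and WT-2 at the same days. In the other table, NSC are 46C-derived neural stem cells expanded with EGF and FGF-2 to passage 15 after a sort for Sox1-GFP. NPC are 46C-derived progenitors sorted for the same reporter, and ME is mesendoderm sorted for GFP from T-GFP cells after LIF withdrawal in serum, and all 3 are labelled 129/Ola. ES cells kept in serum and LIF (day 0) and cells at days 2, 4 and 6 without LIF came from the lines CJ7 and JF4 (129S1/SVImJ) and J1 (129S4/SvJae). Day 0 is the authors' mean over 3 libraries (CJ7 once, JF4 2 times), day 2 over 2 (J1, CJ7) and day 6 over 3 (JF4, J1, CJ7), and day 4 (CJ7), NSC, NPC and ME are single libraries. The labels do not state whether replicate libraries are separate cultures or clones, and p-values cover the spread between these libraries alone, part of which may be technical.

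The values are FPKM, read numbers scaled to transcript length and library size, so levels can be compared between genes. Depth, worked out from the spacing of low values, was 9.04 to 16.4 M reads per RA library. Haunt, listed as Gm15055, checked the knockout label: at day 4 it averaged 1.76 FPKM in 58 kb KO and 36.2 in WT, and at day 2 0.565 in 58 kb KO and 135 in WT. In WT cells 10 of 13 tested pluripotency markers fell between day 2 and day 4, where 10.9% of all genes fell. Of 16 RA response genes 9 rose, where 14.4% of all genes rose, and Cdx1 and Hoxb1, which respond early, fell. In the other table the lineage labels were compared with their markers. NSC had Nes at 522 and Fabp7 at 1227 FPKM with Sox1 at 0.910, NPC had Sox1 at 21.8 but still Pou5f1 at 91.0, and ME had T at 192 and Pou5f1 at 486, against 0.226 FPKM of Sox1, 1.40 of T and 997 of Pou5f1 at day 0.

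Promoter sequence was available from RefSeq (GRCm38.p6) for 3 of the 6 genes. The windows are shown because Plaur and Serpine2 behaved differently under RA and because the tables list Tfpi with different starts. Each line gives the 250 bases before a RefSeq start, 5′ to 3′ on the gene's strand, and capitals mark matches, on either strand, to the GC box GGGCGG, the AP-1 site TGANTCA or the TATA box TATAAA. The retinoic acid receptor half-site AGGTCA and the CCAAT box (its name gives its letters) were also searched on both strands.
Plaur, chr7:24462233-24462482 (+): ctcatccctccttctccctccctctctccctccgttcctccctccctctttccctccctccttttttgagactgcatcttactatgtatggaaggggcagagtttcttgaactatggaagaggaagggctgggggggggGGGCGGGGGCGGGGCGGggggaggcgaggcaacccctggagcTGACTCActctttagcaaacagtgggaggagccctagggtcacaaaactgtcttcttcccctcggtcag
Serpine2, chr1:79858666-79858915 (-): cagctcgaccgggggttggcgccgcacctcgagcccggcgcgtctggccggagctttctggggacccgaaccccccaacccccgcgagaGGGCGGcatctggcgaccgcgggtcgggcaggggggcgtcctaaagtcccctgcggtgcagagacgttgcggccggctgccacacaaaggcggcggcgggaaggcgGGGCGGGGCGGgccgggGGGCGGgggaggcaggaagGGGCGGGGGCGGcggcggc
Tfpi, downstream start, chr2:84474175-84474424 (-): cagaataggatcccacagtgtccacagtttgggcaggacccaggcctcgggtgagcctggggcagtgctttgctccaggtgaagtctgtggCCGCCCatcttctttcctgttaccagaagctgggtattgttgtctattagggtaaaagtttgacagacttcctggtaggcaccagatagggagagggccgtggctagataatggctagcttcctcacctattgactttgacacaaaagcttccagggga
Tfpi, upstream start, chr2:84476760-84477009 (-): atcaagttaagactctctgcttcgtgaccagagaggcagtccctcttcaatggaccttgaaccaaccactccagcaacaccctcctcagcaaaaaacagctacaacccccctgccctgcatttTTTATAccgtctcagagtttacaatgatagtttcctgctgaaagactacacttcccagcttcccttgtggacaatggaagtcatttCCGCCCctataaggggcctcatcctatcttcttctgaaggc
The Plaur window held 3 adjoining GC boxes and 1 AP-1 site, and that of Serpine2 held 6 GC boxes at a GC content of 78.8%, against a median of 52.4% over all 32851 windows. Of all windows of this length, 32.7% held a GC box, 6.75% the AP-1 letters, 12.4% the TATA letters, 14.0% AGGTCA and 33.8% the CCAAT letters. Neither the receptor half-site nor the CCAAT letters were in any of the 4 windows, which says only that these letters were not there. The part of any of these sites in the RA values was not tested.

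Between RA day 2 and day 4 the activators and the urokinase receptor rose in both genotypes, while Serpine2 and Tfpi did not pass the test. Tests were made with limma on log2(FPKM + 1) over the 15705 genes that reached 1 FPKM in 2 or more libraries, with Benjamini-Hochberg adjusted p under 0.05 as the threshold. Of the 5 members tested, 3 rose and 0 fell in 58 kb KO cells, where 10% of all genes tested rose and 7.81% fell (17.8% passed in all). In WT cells the same 3 rose and 0 fell, where 14.4% of all genes rose and 10.9% fell (25.3% in all). Thbd did not reach the filter and was not tested. The days did not overlap for 4 of 5 members in 58 kb KO, all higher at day 4, where this held for 59.8% of all genes (32.8% higher, 27% lower). In WT they did not overlap for 3 of 5, all higher, where this held for 68.8% (37.6% higher, 31.2% lower).

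Plat, tissue-type plasminogen activator (NM_008872, mm9 chromosome 8, plus strand, 23868216 to 23893320), had the largest change of the members in WT. It was at 43.7 and 42.0 FPKM in 58 kb KO cells at day 4, against 12.8 and 8.42 at day 2 (KO-i first). In WT cells it was at 69.0 and 71.8 FPKM at day 4, against 12.6 and 8.99 at day 2 (WT-1 first). Every day 4 library was above every day 2 library, and the day 4 libraries formed a lower KO pair and a higher WT pair. The change was 1.94 log2 units in 58 kb KO (SE 0.21, limma adjusted p = 0.00288) and 2.61 in WT (SE 0.21, limma adjusted p = 0.000472). Plat was the most abundant of the 6 in WT cells at day 4. Its ratio to Serpine2, an inhibitor of both activators, was 1.48 and 0.951 in 58 kb KO at day 4, against 0.240 and 0.208 at day 2, and in WT 2.08 and 2.23 at day 4, against 0.389 and 0.284 at day 2.

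Plau, urokinase (NM_008873, mm9 chromosome 14, plus strand, 21655884 to 21662610), was at 29.3 and 20.9 FPKM in 58 kb KO at day 4, against 12.5 and 4.97 at day 2. In WT it was at 20.4 and 14.7 FPKM at day 4, against 4.95 and 4.74 at day 2. Day 4 lay above day 2 in both genotypes, and KO-i had the highest value at each day. The change was 1.52 log2 units in 58 kb KO (SE 0.36, limma adjusted p = 0.0291) and 1.65 in WT (SE 0.36, limma adjusted p = 0.0156). This was the least firm of the 3 calls. The call in 58 kb KO was lost without KO-j at day 2 (0.94 log2 units, adjusted p = 0.0811) and without KO-i at day 4 (1.29, adjusted p = 0.128), though not without KO-i at both days (1.88, adjusted p = 0.0283). In WT it was lost without any 1 of the 4 libraries (WT-1 at day 2, adjusted p = 0.0725; WT-2 at day 2, 0.0823; WT-1 at day 4, 0.0925; WT-2 at day 4, 0.0531), with changes of 1.43 to 1.87 log2 units.

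Plaur, the GPI-anchored urokinase receptor (NM_011113, mm9 chromosome 7, plus strand, 25247519 to 25260892), was at 9.73 and 9.51 FPKM in 58 kb KO at day 4, against 2.15 and 1.39 at day 2. In WT it was at 12.8 and 11.3 FPKM at day 4, against 2.34 and 2.18 at day 2. The days did not overlap, and the change was 1.95 log2 units in 58 kb KO (SE 0.17, limma adjusted p = 0.00198) and 1.99 in WT (SE 0.17, limma adjusted p = 0.000608). Plat and Plaur kept their calls with any 1 library left out. Markers of several cell types rose along with these 3 genes. Over all genes tested, 10% rose and 7.81% fell in 58 kb KO, and 14.4% rose and 10.9% fell in WT. Of 16 parietal endoderm markers, among them laminin and collagen IV chains, 13 rose and 1 fell in 58 kb KO, and 14 rose and 0 fell in WT. Their medians were 1.71 and 2.35 log2 units. Of 14 visceral endoderm markers 6 rose and 1 fell in 58 kb KO, and 10 rose and 1 fell in WT. Of 8 trophoblast markers 4 rose and 2 fell in each genotype, and of 8 neural progenitor markers 4 rose and 1 fell in each. Of 8 fibroblast and feeder markers 4 rose and 1 fell in 58 kb KO, and 4 rose and 3 fell in WT. These lists were chosen with earlier results of these data known. The part of these cell types in the results was not tested.

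Serpine2, also known as protease nexin-1 (NM_009255, mm9 chromosome 1, minus strand, 79790896 to 79855240), was at 29.6 and 44.2 FPKM in 58 kb KO at day 4, against 53.5 and 40.5 at day 2. In WT it was at 33.2 and 32.3 FPKM at day 4, against 32.4 and 31.7 at day 2. The WT libraries of both days lay within a narrow band, and the spread was in the knockout. The difference between days was -0.36 log2 units in 58 kb KO (95% interval -0.82 to 0.10, limma adjusted p = 0.246) and 0.03 in WT (-0.43 to 0.49, limma adjusted p = 0.929), so a WT change of more than about 0.49 log2 units in either direction lies outside the interval. Its sign turned to -0.02 and -0.03 in WT with libraries rescaled and with quantile normalization, and to 0.12 in 58 kb KO without KO-i at both days.

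Tfpi, tissue factor pathway inhibitor (NM_001177319, mm9 chromosome 2, minus strand), was at 12.3 and 7.71 FPKM in 58 kb KO at day 4, against 6.40 and 7.53 at day 2. In WT it was at 14.2 and 8.53 FPKM at day 4, against 8.99 and 6.12 at day 2. The days overlapped in WT and were barely apart in 58 kb KO, and the differences of 0.43 and 0.51 log2 units in 58 kb KO and WT did not pass (95% intervals -0.25 to 1.12 and -0.17 to 1.20, limma adjusted p = 0.336 and 0.239). The RA table lists Tfpi at 84280880 to 84316916 and the other table at 84273017 to 84314331. The 2 listed ends, where transcription begins on this strand, are 2585 bases apart, as are the 2 RefSeq windows printed above. Its values in the RA table carry up to 10 significant digits where those of the other 5 carry 6, as sums of several estimates would.

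Thbd, thrombomodulin, the endothelial receptor that turns thrombin towards activating protein C (NM_009378, mm9 chromosome 2, minus strand, 148230207 to 148233924), was close to the limit of detection. It was at 0.382 and 0.186 FPKM in 58 kb KO at day 4, against 0.284 and 0.0868 at day 2, and in WT at 0.310 and 0.320 FPKM at day 4, against 0.154 and 0.0714 at day 2. Each value came within 0.0135 of a whole number of reads at the estimated depth. In 58 kb KO these were 20 (95% exact Poisson interval 12.2 to 30.9) and 8 (3.45 to 15.8) reads at day 4, against 9 (4.12 to 17.1) and 5 (1.62 to 11.7) at day 2. In WT they were 11 (5.49 to 19.7) and 18 (10.7 to 28.4) reads at day 4, against 7 (2.81 to 14.4) and 3 (0.619 to 8.77) at day 2. The intervals cover counting error only. Summed over libraries there were 28 reads in 58 kb KO at day 4, against 14 at day 2, and 29 in WT at day 4, against 10 at day 2, with no adjustment for depth. Without the filter, the difference between days on the log2(FPKM + 1) scale was 0.12 in 58 kb KO and 0.24 in WT and did not pass (limma adjusted p = 0.597 and 0.243). At levels this far under the pseudocount of 1 FPKM, that scale understates any change. Endothelial markers, the list for the cells in which Thbd is best known, summed to 14.9 to 22.8 FPKM in 58 kb KO and 22.1 to 22.5 in WT at day 4, with Emcn at 0 in 58 kb KO.

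**Figure D1:**
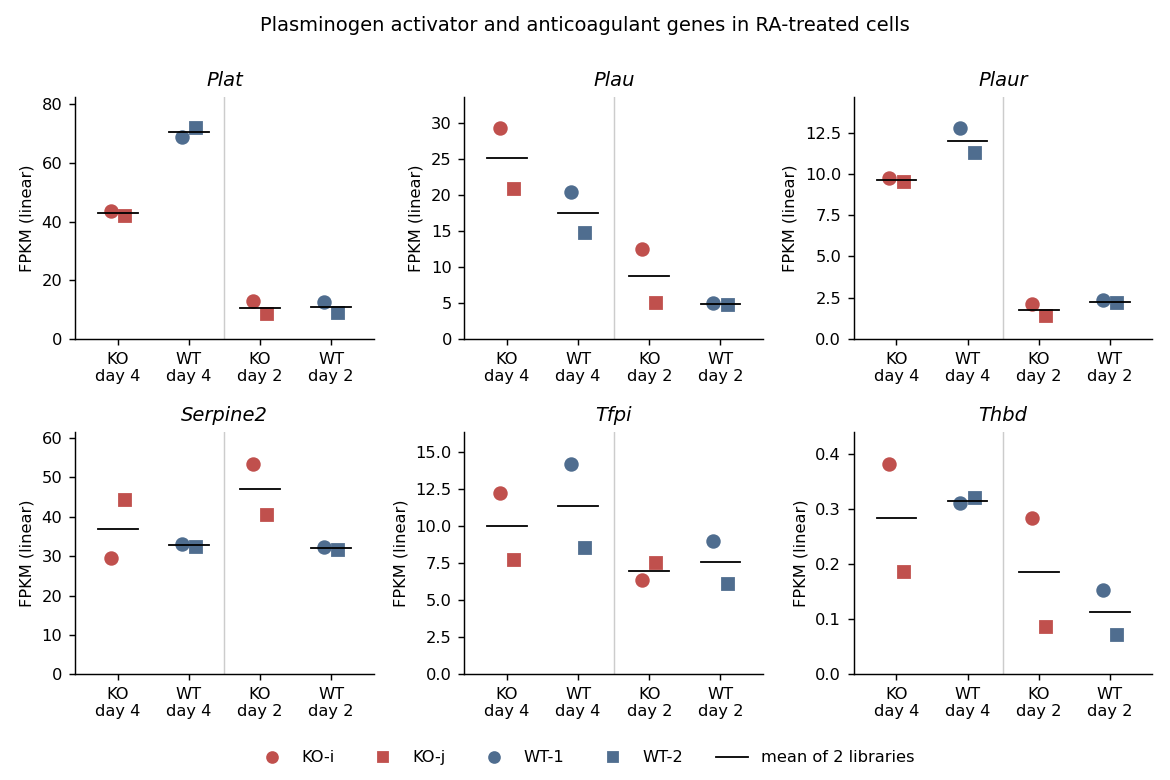
FPKM (linear axis from 0, a separate scale for each gene) of the 6 genes in each RA library, with day 4 left of day 2 and 58 kb KO left of WT within a day; bars are means of 2 libraries. Plat, Plau and Plaur stood higher at day 4 in both genotypes, and Plat at day 4 was at 42.0 to 43.7 FPKM in 58 kb KO and 69.0 to 71.8 in WT.

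In 58 kb KO against WT cells, no member passed the test at either day with limma: 0 of 5 at day 4, where 0% of all genes passed, and 0 of 5 at day 2, where 0.0255% passed. Haunt itself did not pass at day 4 (-3.93 log2 units, limma adjusted p = 0.128) but did at day 2 (-6.54, limma adjusted p = 0.0153). A gene that did not pass at day 4 may thus still differ. At an unadjusted p under 0.05 there was 1 of 5 members at each day, Plat at day 4 and Serpine2 at day 2, where 14.4% and 5.11% of all genes were under it. The KO and WT libraries did not overlap for 3 of 5 members at day 4 (Plau higher, Plat and Plaur lower in 58 kb KO) and for 3 of 5 at day 2 (Plau and Serpine2 higher, Plaur lower). Over all genes this held for 46.6% at day 4 (24.9% higher, 21.7% lower) and 37% at day 2 (23.1% higher, 13.9% lower). At both days the receptor had lower values and urokinase higher values in 58 kb KO, although the nearest libraries were close: KO-j was barely above WT-1 for urokinase at both days, and KO-i barely below WT-2 for the receptor at day 2. Without the filter, Thbd differed by -0.04 log2 units at day 4 and 0.09 at day 2 (limma adjusted p = 0.979 and 0.945), on the same flattened scale.

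Plat gave the clearest difference. At day 4 it averaged 42.9 ± 1.19 FPKM in 58 kb KO and 70.4 ± 2.00 in WT (SD, n = 2 each), a difference of -0.70 log2 units (SE 0.21, 95% interval -1.18 to -0.22) with an unadjusted p of 0.00999 and an adjusted p of 0.224 by limma. At day 2 the means were 10.6 ± 3.11 FPKM in 58 kb KO and 10.8 ± 2.57 in WT, and the libraries overlapped (-0.03 log2 units, 95% interval -0.51 to 0.45). The difference of the KO effect between the days was -0.67 log2 units for Plat (95% interval -1.35 to 0.01, limma adjusted p = 0.887), and the other 4 members were between -0.39 and -0.04 with adjusted p of 0.934 to 0.998. None of the 5 passed limma's test of this difference, where 0% of all genes did, and 0 had an unadjusted p under 0.05, where 5.56% of all genes had. Leaving out 1 library at a time kept the day 4 difference of Plat between -0.73 and -0.67 log2 units.

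Several marker lists were lower in 58 kb KO at day 4, as Plat was, among them that of parietal endoderm. Its 16 genes summed to 1555 to 1653 FPKM in 58 kb KO and 2609 to 2744 in WT at day 4, and to 436 to 538 in 58 kb KO and 485 to 502 in WT at day 2, and none was at 0 in either group. At day 4 all 16 had lower means in 58 kb KO and 13 did not overlap, where 21.7% of all genes were lower without overlap, with a median of -0.84 log2 units against 0.02 over all genes. None of the 16 passed limma's adjusted test, where 0% of all genes did, while 11 had an unadjusted p under 0.05, where 14.4% of all genes had. The marker lists were chosen with earlier results of these data known, so such counts are not an independent test. Col4a1, a collagen chain of basement membranes, was at 273 and 328 FPKM in 58 kb KO and 563 and 589 in WT at day 4. Of 16 RA response genes, 7 were lower and 6 higher without overlap at day 4. Of 14 visceral endoderm markers 9 were lower and 1 higher without overlap, of 8 trophoblast markers 6 and 1, and of 5 mesendoderm markers 3 and 0. The medians of these last 3 lists at day 4 were -0.78, -0.67 and -0.52 log2 units. The part of these cells in the lower Plat values was not tested, and in bulk RNA fewer cells of a type and less RNA per cell cannot be told apart. At day 2 all 13 tested pluripotency markers were lower in 58 kb KO, with a median of -0.52 log2 units against 0.04 over all genes. Of these, 5 did not overlap, where 13.9% of all genes were lower without overlap. With limma 0 passed, where 0.0255% of all genes did. The part of these markers' cells in the day 2 values of the members was not tested.

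Plau was higher in 58 kb KO mainly through KO-i. It averaged 25.1 ± 5.92 FPKM in 58 kb KO and 17.6 ± 3.99 in WT at day 4 (SD, n = 2 each; 0.49 log2 units, 95% interval -0.35 to 1.33, limma adjusted p = 0.555). At day 2 it averaged 8.71 ± 5.29 FPKM in 58 kb KO and 4.84 ± 0.154 in WT (0.62 log2 units, -0.22 to 1.46, limma adjusted p = 0.880). KO-i stood 0.72 log2 units above the WT mean at day 4 and 1.20 above it at day 2, and KO-j 0.25 and 0.03 above it. Without KO-i at both days the difference was 0.25 at day 4 and 0.03 at day 2. The 349 genes of chromosome 14 at 5 FPKM or more had a median shift of 0.08 log2 units in KO-i at day 4 and 0.14 at day 2, whose part in the Plau values was not tested. The ratio of Plat to Plau at day 4 was 1.49 and 2.01 in 58 kb KO and 3.38 and 4.87 in WT.

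Serpine2 averaged 47.0 ± 9.18 FPKM in 58 kb KO and 32.1 ± 0.539 in WT at day 2 (SD, n = 2 each; 0.53 log2 units, 95% interval 0.07 to 0.99, limma adjusted p = 0.880). At day 4 it averaged 36.9 ± 10.3 FPKM in 58 kb KO and 32.8 ± 0.671 in WT (0.14 log2 units, -0.32 to 0.60, limma adjusted p = 0.775). Its chromosome moved in the KO-i libraries of both days. Over 506 genes of chromosome 1, KO-i lay 0.29 log2 units above the WT mean at day 4 and 0.31 at day 2. KO-j lay at -0.02 and 0.01. The same measure for Serpine2 at day 4 was -0.14 in KO-i, with KO-j at 0.42, whereas at day 2 both knockout libraries were above WT, KO-i by 0.72 and KO-j by 0.33. Its chromosome's part in these values was not tested. With chromosome medians subtracted its day 2 difference was 0.38 log2 units, and without KO-i 0.33.

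Plaur differed by -0.29 log2 units at day 4 (95% interval -0.69 to 0.11, limma adjusted p = 0.462) and -0.25 at day 2 (-0.65 to 0.15, limma adjusted p = 0.880). Tfpi differed by -0.17 (-0.85 to 0.52) and -0.09 (-0.77 to 0.60), and its day 2 sign turned to 0.02 without KO-i. These intervals still hold differences of more than 0.5 log2 units, so similar levels were not shown.

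**Figure D2:**
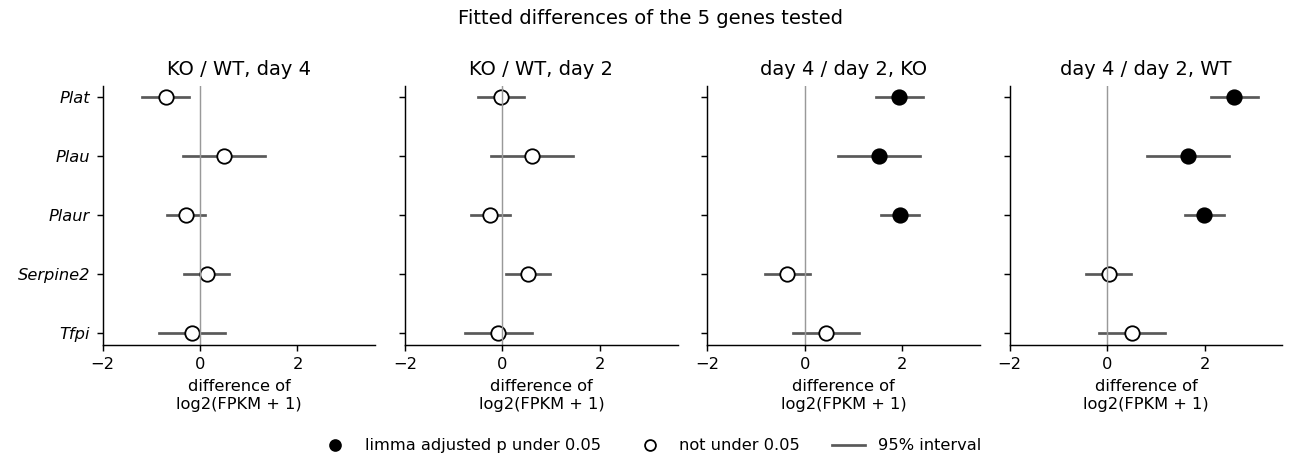
Fitted differences on the log2(FPKM + 1) scale with 95% intervals for the 5 members tested, for 58 kb KO against WT at day 4 and day 2 and for day 4 against day 2 in each genotype. Filled points have a limma adjusted p under 0.05: Plat, Plau and Plaur between the days in both genotypes and none between the genotypes, where Plat at day 4 was at -0.70.

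Ordered by mean level, WT cells at day 4 had Plat above Serpine2, Plau, then Plaur and Tfpi, whose ranges overlapped, and Thbd last. At day 4 in 58 kb KO the ranges of Plat and Serpine2 overlapped at the top, followed by Plau, and those of Tfpi and Plaur overlapped below it. At day 2 Serpine2 led in both genotypes, Plaur was next to last and Thbd last. Of those in between, the range of Plau overlapped both Plat and Tfpi in 58 kb KO, while in WT Plat and Tfpi met at the edge of their ranges, above Plau. Within each day 2 library Plat was above Plau in 58 kb KO (ratios of 1.03 in KO-i and 1.69 in KO-j) and above Tfpi in WT.

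Among the named genes tested, with unnamed loci left out, those whose profiles over the 8 RA libraries lay closest to each member were found. The measure was the root mean square distance between log2(FPKM + 1) values centred on each gene's mean. For Plat these were Tmem98 (0.16), Csf1 (0.17) and Cryab (0.19), for Plau Pogk (0.22), Vstm4 (0.24) and Nptx1 (0.25), and for Plaur Fosl2 (0.14), Abtb2 (0.19) and Mecom (0.19). Csf1 encodes a macrophage growth factor and Fosl2 a subunit of AP-1, and no link of either gene to its member was tested. The nearest to Serpine2 were Ptar1 (0.10), Prkcdbp (0.11) and Btg2 (0.12), and to Tfpi Gstt1 (0.16), Zscan22 (0.16) and Pcdhga8 (0.17). For scale, the members' own profiles spread around their means by 0.27 (Serpine2) to 1.18 (Plat). Vstm4 shares chromosome 14 with Plau and Btg2 shares chromosome 1 with Serpine2, while the other genes named lie on other chromosomes than their member. The part of chromosome shifts in KO-i in these distances was not tested.

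The other genes of the plasminogen system were compared between the days. Plg, plasminogen itself, was at most 0.147 FPKM in any RA library, so the activators rose in cells with little or no transcript of their substrate. Of 20 listed genes 15 could be tested. In 58 kb KO 3 rose and 0 fell (median 0.06 log2 units), where 10% of all genes rose and 7.81% fell. In WT 7 rose and 2 fell (median 0.50), where 14.4% rose and 10.9% fell, and the median over all genes was 0.04 in both genotypes. The median in 58 kb KO was thus close to that of all genes.

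Anxa2, which with S100a10 forms a cell surface receptor for plasminogen and tissue-type activator, had the largest change. It was at 47.8 and 48.5 FPKM in 58 kb KO at day 4, against 11.3 and 7.23 at day 2, and at 50.3 and 56.9 in WT at day 4, against 8.42 and 7.25 at day 2 (2.29 and 2.63 log2 units in 58 kb KO and WT, limma adjusted p = 0.00181 and 0.000429). Mrc2, an endocytic collagen receptor also known as uPARAP, and Serpinf1, a serpin without protease inhibition, rose in both as well, by 0.82 and 1.12 log2 units in 58 kb KO and 0.98 and 1.08 in WT. S100a10, Vldlr, a clearance receptor for protease and serpin complexes, Vtn, vitronectin, and Serpinf2, the plasmin inhibitor, were at 0.06, 0.38, 0.77 and 0.43 log2 units in 58 kb KO without passing. They rose in WT by 0.81, 0.78, 1.33 and 1.32 in the same order, and the difference between the genotypes did not pass for any of them (limma adjusted p = 0.786 to 0.924). Cpb2 and Hpn fell by 0.97 and 0.87 log2 units in WT. Leaving out 1 library in turn gave 2 to 3 risen and 0 fallen in 58 kb KO, 2 without KO-i at both days, and 3 to 6 risen and 0 to 1 fallen in WT. The lowest WT count, 3, was without WT-2 at day 2, and it was 4 without WT-1 or WT-2 at day 4.

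Lrp1, which takes up complexes of activators with serpins, was at 16.8 and 28.0 FPKM in 58 kb KO and 28.2 and 36.3 in WT at day 4, and its difference between days did not pass.

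Of the coagulation and protein C genes around Tfpi and Thbd, 9 of 21 could be tested. There, 4 rose and 0 fell in 58 kb KO, where 10% of all genes rose and 7.81% fell, and 5 rose and 1 fell in WT, where 14.4% rose and 10.9% fell. F3, tissue factor, the target of Tfpi, was at 20.5 and 14.8 FPKM in 58 kb KO at day 4, against 8.57 and 8.45 at day 2, and at 23.6 and 18.8 in WT at day 4, against 6.58 and 8.42 at day 2 (0.95 and 1.39 log2 units, limma adjusted p = 0.0183 and 0.00305). Ggcx, the vitamin K-dependent carboxylase, and Fgb, a fibrinogen chain at 1.08 to 2.18 FPKM at day 4, also rose in both. Gas6 rose in 58 kb KO (0.81), and Pros1 (1.02) and Vkorc1 (0.68) rose and the protease-activated receptor F2rl1 (-1.26) fell in WT. Without KO-i at both days the 58 kb KO count was 1 risen and 1 fallen. With 1 library left out, the 58 kb KO count was 1 risen without KO-i at either day or KO-j at day 2, and the WT count was 2 risen without WT-1 at either day.

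**Figure D3:**
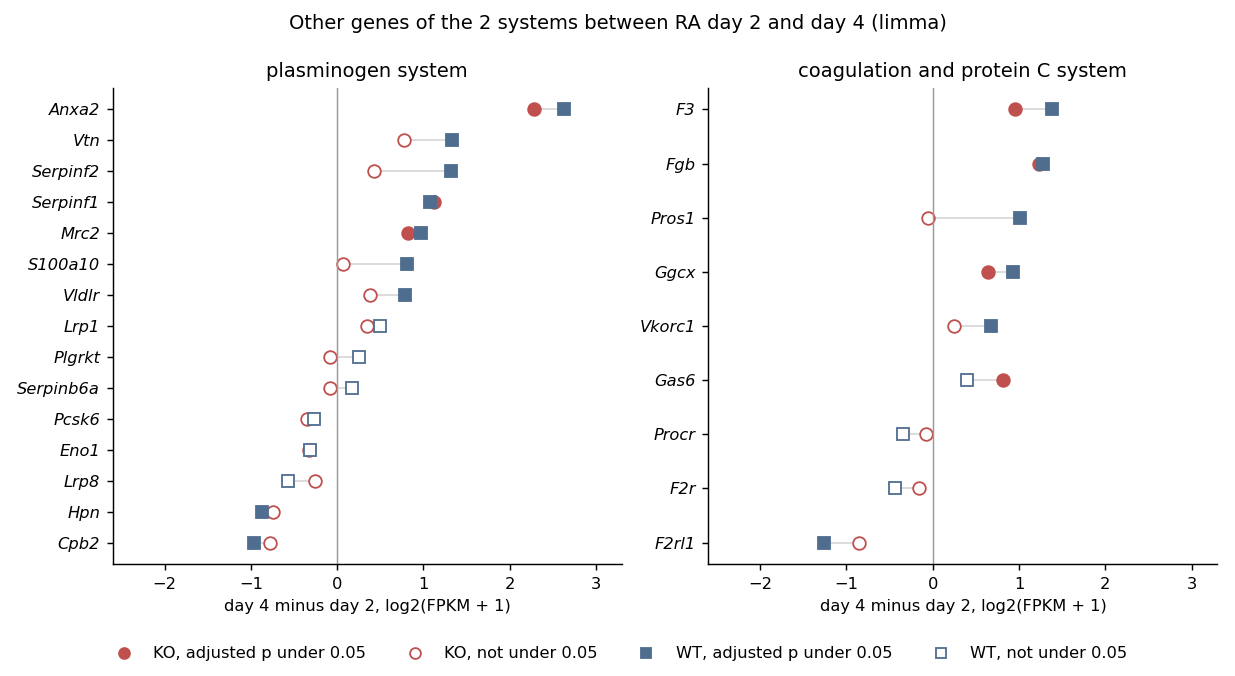
Day 4 minus day 2 differences of log2(FPKM + 1) for the other tested genes of the plasminogen system (left) and the coagulation and protein C system (right), in 58 kb KO (red circles) and WT (blue squares), sorted by the WT value; filled symbols have a limma adjusted p under 0.05. Anxa2 leads the left panel at 2.29 in 58 kb KO and 2.63 in WT, and F3 the right panel at 0.95 and 1.39.

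Between the genotypes 0 of 15 plasminogen genes and 0 of 9 coagulation genes passed with limma at either day, with 4 and 1 at an unadjusted p under 0.05 at day 4, where 14.4% of all genes were under it, and 0 and 2 at day 2, where 5.11% were. The lowest p at day 4 were those of Serpinf2, at 0.516 FPKM on average in 58 kb KO and 2.32 in WT (-1.12 log2 units, limma adjusted p = 0.169), and Pros1, at 6.72 in 58 kb KO and 12.5 in WT (-0.81, limma adjusted p = 0.194). The medians at day 4 were -0.27 and -0.16 log2 units, against 0.02 over all genes.

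The other table placed the same genes in neural lineages, mesendoderm and ES cells. It gives no replicates, so differences on the log2(FPKM + 1) scale are described without a test, and 1 log2 unit was taken as the size to report. Line, strain and medium differ between the lineages and day 0 along with cell type and cannot be told apart from it.

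Serpine2 and Plat were high in neural cells. Serpine2 was at 1258 FPKM in NSC and 33.9 in NPC, against 9.81 at day 0, and ranked 34th of 17756 entries above 0 in NSC. Plat was at 49.9 FPKM in NSC and 25.7 in NPC, against 1.00 at day 0. These are differences of 6.86 and 1.69 log2 units for Serpine2 and 4.67 and 3.74 for Plat. Between NSC and NPC, Serpine2 differed by 5.17 log2 units and Plat by 0.93.

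The urokinase side was low in the same cells. Plau was at 0.304 FPKM in NSC and 0.745 in NPC, against 1.88 at day 0, and Plaur at 0.0502 and 0.214, against 6.40 at day 0. Tfpi was at 1.20 FPKM in NSC and 3.25 in NPC, against 43.5 at day 0, where it was the most abundant of the 6. The ratio of Plat to Plau was 164 in NSC and 34.5 in NPC, against 0.533 at day 0. Thbd rested on about 1 read in NSC and was listed at 0 in NPC, where 3 reads would be 0.0309 FPKM.

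By count, 2 of 6 members were higher by at least 1 log2 unit in NSC (Plat and Serpine2) and 3 lower (Plau, Plaur and Tfpi), where 7.44% of all 39067 entries were higher and 5.99% lower. Among entries at 1 FPKM or more in either column these shares were 22.7% and 18.2%. In NPC 2 were higher and 2 lower (Plaur and Tfpi), with 5.33% and 4.23% of all entries, or 16.4% and 13.1% of those at 1 FPKM or more. Between NSC and NPC 1 of 6 was higher in NSC and 0 lower, with 4.35% and 4.06% of all entries, or 13.6% and 12.7% of those at 1 FPKM or more. With a pseudocount of 0.1, 4 members were lower in NPC than at day 0 and 3 lower in NSC than in NPC.

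In ME all 6 members were below their day 0 values. Tfpi was at 4.66 FPKM against 43.5, Serpine2 at 6.09 against 9.81, Plaur at 3.94 against 6.40, Plau at 0.469 against 1.88, Plat at 0.290 against 1.00 and Thbd at 0.0283 against 0.290. Tfpi, at -2.98, was the 1 of 6 lower by at least 1 log2 unit, and 0 were higher, where 3.87% of all entries were lower and 3.34% higher, or 12.4% and 10.7% of those at 1 FPKM or more. With a pseudocount of 0.1 in place of 1, 4 of 6 were lower.

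The columns of LIF withdrawal mix the lines differently at each day, so line and day cannot be told apart. At days 0, 2, 4 and 6 Plat was at 1.00, 2.20, 1.70 and 9.61 FPKM, Plau at 1.88, 2.26, 1.93 and 5.93, and Plaur at 6.40, 12.8, 5.85 and 18.4. Serpine2 was at 9.81, 20.8, 10.9 and 28.2 FPKM, Tfpi at 43.5, 14.8, 8.63 and 13.2, and Thbd at 0.290, 0.0589, 0.228 and 0.417. Of the 6, 5 were highest at day 6 and Tfpi at day 0, and the day 4 column, a single CJ7 library, was below both neighbours for Plat, Plau, Plaur, Serpine2 and Tfpi.

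At day 6, 4 of 6 members were higher than at day 0 by at least 1 log2 unit (Plat 2.41, Serpine2 1.43, Plaur 1.39 and Plau 1.27) and 1 was lower (Tfpi, -1.65), where 4.13% of all entries were higher and 2.53% lower, or 13.1% and 8.02% of those at 1 FPKM or more. At day 4, 0 were higher and Tfpi was lower (-2.21), with 2.37% of all entries higher and 3.13% lower, or 7.66% and 10.1% of those at 1 FPKM or more. At day 2 Serpine2 was higher (1.01) and Tfpi lower (-1.49), with 1.67% and 1.84% of all entries, or 5.42% and 5.98% of those at 1 FPKM or more. The Serpine2 value at day 2 is just at the limit and was under it with columns rescaled, while a pseudocount of 0.1 gave 2 higher and 2 lower members.

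**Figure D4:**
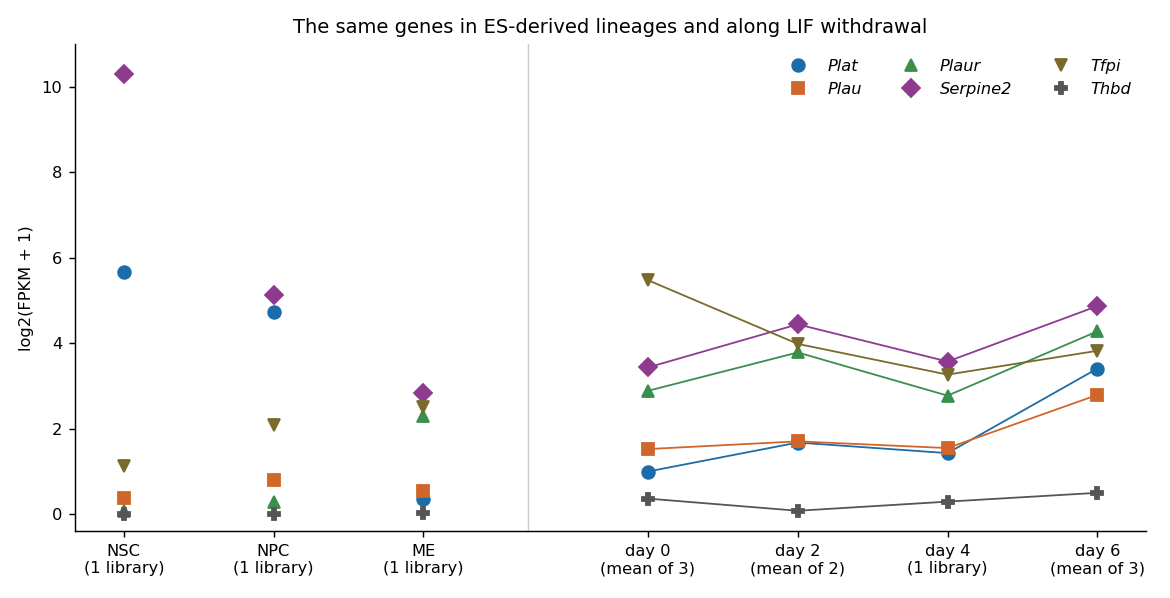
Log2(FPKM + 1) of the 6 genes in NSC, NPC and ME (left) and along days 0 to 6 of LIF withdrawal (right, points joined), each column being a single library or the authors' mean as marked. Serpine2 (1258 FPKM) and Plat (49.9 FPKM) stand highest in NSC, and Tfpi (43.5 FPKM) at day 0.

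Of the partners of these genes, Lrp1 was at 67.6 FPKM in NSC and 14.8 in NPC, against 4.97 at day 0. In NSC 5 of the 20 other plasminogen genes were higher than at day 0 by at least 1 log2 unit (Mrc2, Lrp1, A2m, Lrp8 and Vldlr) and 7 lower, among them Serpinb6a, S100a10, Anxa2, Serpini1, Eno1 and Hpn. This held for 7.44% (higher) and 5.99% (lower) of all entries, or 22.7% and 18.2% of those at 1 FPKM or more. Of the 5 higher genes, Lrp1, Lrp8 and Vldlr encode related receptors of the low density lipoprotein receptor family. In day 6 cells 7 of 20 were higher, S100a10 at 641 and Anxa2 at 158 FPKM among them, against 131 and 37.7 at day 0, and 2 were lower. The shares were 4.13% and 2.53% of all entries, or 13.1% and 8.02% of those at 1 FPKM or more. Of 21 coagulation genes 5 were higher in NSC, with Gas6 at 154 FPKM against 2.43 at day 0, and 3 lower. Of all entries 7.44% were higher and 5.99% lower there, or 22.7% and 18.2% of those at 1 FPKM or more. Both lists were counted with no FPKM filter, as were the shares of all entries. An entry under 1 FPKM in both columns cannot differ by 1 log2 unit on this scale. The shares of all entries are therefore lowered by silent entries. Plg was at most 0.0693 FPKM in any column.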

How the data were processed

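RNA sequencing libraries of mouse ES cells were analysed from 2 expression tables, covering 20 of 54 samples; the other 34 were not analysed here, and 1 of these had no group in the labels. The deposited tables hold 1 value per gene, library or mean of libraries, read here as FPKM from the size and steps of the values; what program made the FPKM was not given in the sources used here. Per the submitters' processing notes, the series used TopHat2 2.0.11, Bowtie 1.0.0, MACS 1.4.2 and CASAVA with the build mm9, with no role given. RA libraries used a kit that does not mark strand; the other libraries were stranded, per the labels' protocols.

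From the deposited FPKM, log2(FPKM + 1) was fitted with limma 3.58.1 (R 4.3.3, with an intensity trend; residual degrees of freedom 4, prior 3.50) in 4 groups of 2 libraries, keeping genes at 1 FPKM or more in at least 2 libraries, with Benjamini-Hochberg adjustment over 15705 genes and two-sided tests; SE and 95% intervals come from it. The fit was tested on simulated data. Unreplicated columns were compared at 1 log2 unit. Day 2 and day 4 libraries share names; deviations from group means correlated at 0.260 for KO and 0.0849 for WT names, so names were not taken as pairs. Genes without a role among the members were named as pathway genes of preset lists that passed, had the lowest p or are standard partners, and the 3 nearest profiles per member. The members and lists were chosen with earlier results of these data known. FPKM fits cannot weigh depth, so counting error of low genes is not modelled. Values of 1 gene of the plasminogen list are not reported here.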

Additional observations from a re-analysis of the deposited data

How the results depend on the processing

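Of 360 member values in the RA table under alternative settings, 327 kept direction and side of the threshold, 25 changed sign and 8 lost their call, and of 84 values for LIF withdrawal and lineages, 72 kept theirs. All 8 lost calls were Plau between days. With no filter its adjusted p in 58 kb KO was 0.0810, and with only the 4 libraries of the comparison 0.108. Of values with no call, the difference of the KO effect between days turned to 0.053 for Plaur with a pseudocount of 0.1, to 0.0027 with quantile normalization and to 0.14 without KO-i at both days, an alternative chosen after seeing the data. Without KO-i it was also 0.22 for Plau and 0.092 for Serpine2, the day 2 difference of Tfpi was 0.017, and the day difference of Serpine2 in 58 kb KO was 0.12. In WT that of Serpine2 was -0.024 with rescaled libraries and -0.031 with quantile normalization. Leaving out 1 library gave ranges that crossed 0 at day 2 for Plat (-0.31 to 0.24) and Tfpi (-0.33 to 0.16), at day 4 for Tfpi (-0.50 to 0.17) and Serpine2 (-0.14 to 0.42), and for the difference of the KO effect of Plau (-0.71 to 0.46), Plaur (-0.24 to 0.16) and Tfpi (-0.42 to 0.26).

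The number of all genes called moved more. For 58 kb KO against WT at day 4, with limma, it was 0, and 2263 at an unadjusted p under 0.05; it was 1 with a pseudocount of 0.1, 1 with no filter, 1 without KO-i and 0 to 7 with 1 library left out. At day 2 it was 4, and 7 with no filter, 0 with only the 4 libraries, 1 without KO-i and 0 to 0 with 1 left out. For the difference of the KO effect it was 0, with 873 unadjusted, and 5 with no filter, 1 without the trend and 0 to 1 with 1 left out. Between days it was 2802 in 58 kb KO, and 1596 with no filter, 396 with only the 4 libraries, 736 without KO-i and 980 to 2159 with 1 left out. In WT it was 3973, and 1494 to 1917 with 1 left out, where a group is left with a lone library assumed to vary like the others.

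With the library name as a replicate block, 3705 genes were called between days in 58 kb KO, 4783 in WT and 0 for the difference of the KO effect; as a random block (correlation 0.252), 4 were called at day 2 and 0 at day 4, and no member's call changed. In the other table, members higher at day 2 than at day 0 were 2 with a pseudocount of 0.1 and 0 with columns rescaled; with a pseudocount of 0.1, lower members were 2 at day 2, 4 in ME, 4 in NPC and 3 in NSC against NPC. The cause of these moves was not tested.

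Precision is limited by 2 libraries a group, by unknown counts for genes above a few reads, and by single or pooled columns in the lineage table, where no spread is given.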

Other observations

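Matrix metalloproteinases and their inhibitors, which plasmin acts beside in matrix turnover, were compared between the RA days. Of 18 listed genes 14 could be tested. In 58 kb KO 5 rose and 1 fell (median 0.33 log2 units), where 10% of all genes rose and 7.81% fell. In WT 7 rose and 1 fell (median 0.65), where 14.4% rose and 10.9% fell, and the median over all genes was 0.04 in both. Adamts1, a secreted protease of proteoglycans, was at 7.78 and 8.99 FPKM in 58 kb KO at day 4, against 0.993 and 0.651 at day 2, and at 16.4 and 21.7 in WT at day 4, against 0.709 and 0.732 at day 2 (2.37 and 3.53 log2 units). Timp3, a matrix-bound inhibitor, was at 16.1 and 14.7 FPKM in 58 kb KO at day 4, against 5.00 and 2.34 at day 2, and at 22.8 and 21.0 in WT at day 4, against 2.31 and 1.90 at day 2 (1.87 and 2.88 log2 units). Every day 4 library of both genes was above every day 2 library. Mmp9, a gelatinase, fell in both genotypes. In 58 kb KO it was at 0.320 and 0.279 FPKM at day 4, against 1.10 and 2.18 at day 2. In WT it was at 0.304 and 0.447 FPKM at day 4, against 2.63 and 2.17 at day 2. Mmp2 did not pass between days. It averaged 9.20 FPKM in 58 kb KO at day 4, against 11.3 at day 2, and 10.6 in WT at day 4, against 11.0 at day 2. The count was 3 risen and 1 fallen in WT without WT-2 at either day, and 2 risen and 0 fallen in 58 kb KO without KO-i at both days.

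Between genotypes 0 of the 14 passed with limma at either day, with 2 at an unadjusted p under 0.05 at day 4, a share like the 14.4% of all genes, and 0 at day 2, where 5.11% of all genes were under it. The lowest p at day 4 was that of Adamts1, which averaged 8.38 FPKM in 58 kb KO and 19.1 in WT (-1.09 log2 units, limma adjusted p = 0.134). Timp2, an inhibitor that was at 10.9 and 16.9 FPKM in 58 kb KO and 23.3 and 26.4 in WT at day 4, differed between days by 0.42 log2 units in 58 kb KO without passing and rose by 1.48 in WT, and the difference of these was -1.07 (limma adjusted p = 0.824). Markers of parietal endoderm, and by their medians those of visceral endoderm and trophoblast, differed in the same direction at day 4. Their part in these values was not tested.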
